A study of Carica papaya with 12 samples.

Results

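The flesh of unripe fruit of 2 papaya (Carica papaya) varieties, ‘1B’ and ‘RB1’, was compared. The comparison used the 6 libraries of the unripe stage among the 12 of the series, 3 fruits of each variety, and its members were taken from the variety and stage labels alone. Both varieties are Australian commercial cultivars. ‘RB1’ has red flesh and is labelled with a sweet flavour and floral aroma, while ‘1B’ has yellow flesh and is labelled with a bitter flavour and musty aroma. The fruits came from 1 plantation, were picked at stage 1 of the study's ripening index (ripe fruits were at stage 3), and received the fungicide prochloraz. No tree is given for any fruit, so the spread between fruits may be that of 1 tree or of several.

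The main soluble sugars behind the sweetness of papaya flesh are sucrose, glucose and fructose, and enzymes make and break them. Glycolysis turns sugars into pyruvate, from which acetyl-CoA is made. Fatty acids, terpenes and other volatile compounds are made from pyruvate and acetyl-CoA. Beta-glucosidases release glucose, and often an aroma compound, from bound forms.

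The reads of both varieties were assembled together without a genome, into transcripts that Trinity, the assembler, groups under genes. Here an isoform is 1 such transcript, and a gene sum is the count added up over all isoforms of 1 Trinity gene. Isoforms of 1 Trinity gene may be splice forms, alleles of the varieties or close paralogues, and these cannot be told apart from the tables. Levels are CPM, counts scaled to library size and, over the 6 libraries, by TMM (trimmed mean of M-values), and every log2 fold change sets ‘1B’ against ‘RB1’. A gene sum or isoform was called higher or lower where edgeR's quasi-likelihood test gave a Benjamini-Hochberg adjusted p under 0.05 and the absolute log2 fold change was above 1.5. Gene names come from the study's list of 118 sugar and volatile transcripts, which belong to 77 Trinity genes. The study chose that list for differences between these varieties in ripe fruit, so its members are not independent evidence of a variety difference. In bulk flesh, fewer cells of a type and less RNA per cell cannot be told apart.

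Total counts ran from 54741059 to 58163617 in 5 of the libraries and were 19358646 in ‘RB1’ replicate 1. No pair of libraries agreed closely enough to be 1 library deposited more than once, with a chi-square of their counts of 14.3 to 16.8 per degree of freedom in 4 pairs, and 79.5 and 116 in the pairs of ‘RB1’ replicate 1 with the other two ‘RB1’ fruits. The 10 most abundant gene sums took 36.9 to 39.6% of the counts in ‘RB1’ and 45.9 to 48.4% in ‘1B’. The study's quality report gave every unripe ‘1B’ sample a higher RNA quality score than every unripe ‘RB1’ sample. RNA quality and variety therefore cannot be told apart, and the part of either in the results was not tested.

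Unripe fruit of the varieties differed in 3625 of 23956 gene sums tested (15.1%), 1881 of them higher (7.85%) and 1744 lower (7.28%) in ‘1B’. With library size as the only scaling the split was 1102 higher and 3605 lower, and the median log2 fold change of all gene sums fell from -0.07 to -0.58. The changes below are therefore relative to a median near 0, under TMM. The variety difference was larger than the spread between fruits for most gene sums. The median SD within a variety was 0.215 on the log2 CPM scale, while variety means lay a median of 0.566 apart. Levels of the 3 fruits of a variety did not overlap with those of the other in 15007 gene sums (62.6%), and 13668 (57.1%) had an adjusted p under 0.05 at any fold, 29.7% with a higher and 27.3% with a lower level in ‘1B’. Among those called, the median absolute log2 fold change was 2.17, and 988 exceeded 3 and 356 exceeded 5. Only 156 of the called gene sums had 0 counts in every library of a variety, 38 in ‘RB1’ and 118 in ‘1B’. Without ‘RB1’ replicate 1, 4088 gene sums were called, 2119 higher and 1969 lower.

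**Figure D1:**
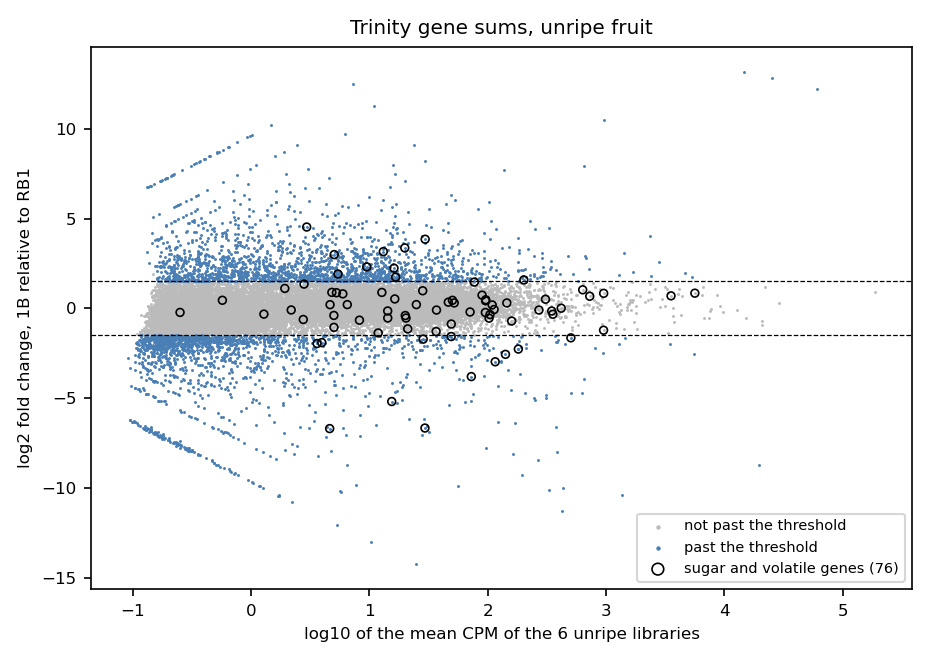
Each point is 1 of 23956 Trinity gene sums, with the log10 of the mean CPM of the 6 unripe libraries on the horizontal axis and the log2 fold change of ‘1B’ relative to ‘RB1’ on the vertical axis. Blue points passed the threshold (3625), dashed lines mark an absolute log2 fold change of 1.5, and the 76 circled list genes lie in both directions, from -6.69 to 4.53.

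Of the 77 genes of the list, 76 could be tested, and 22 of these were called (28.9%, against 15.1% of all gene sums). In ‘1B’, 10 were higher and 12 were lower, with a median log2 fold change of -0.03 over the 76 against -0.07 over all gene sums. An adjusted p under 0.05 at any fold was reached by 34 higher and 30 lower list genes (57.1% of all gene sums reached it), and 68 of the 76 had levels that did not overlap (62.6% of all gene sums). Without ‘RB1’ replicate 1, 23 list genes were called. The remaining gene, palmitoyl-protein thioesterase 1-like, was too low in unripe fruit to be tested.

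**Figure D2:**
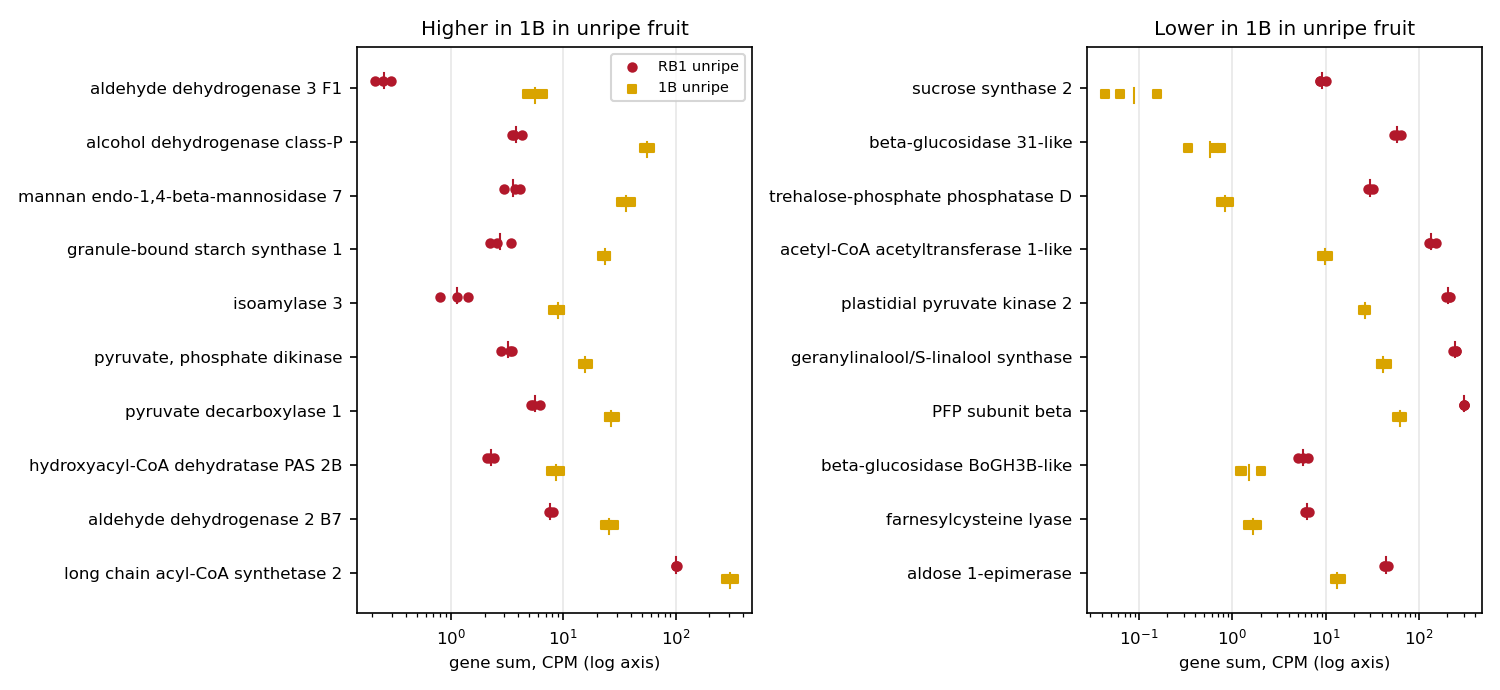
Each point is the CPM of 1 unripe fruit on a log axis, circles for ‘RB1’ and squares for ‘1B’, with a short line at the mean of 3 fruits. The panels show 10 list genes in each direction. They had the largest differences among list genes called without overlap and with a mean of at least 1 CPM. The lack of overlap was thus a condition of choice.

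Among genes that act on sucrose, 1 of 4 sucrose synthases was lower in ‘1B’ (7.28% of all gene sums) and neither invertase was called. Sucrose synthases convert sucrose and UDP to fructose and UDP-glucose, reversibly. The gene sum of sucrose synthase 2 (TRINITY_DN775_c0_g1) was 8.75, 8.67 and 9.995 CPM in ‘RB1’ replicates 1 to 3 and 0.0429, 0.0624 and 0.156 CPM in ‘1B’ replicates 1 to 3. All ‘RB1’ fruits were high and all ‘1B’ fruits were near 0, with a log2 fold change of -6.69 ± 0.22 (SE, adjusted p = 3.59e-16). Its neighbours in the assembly did not follow it. Sucrose synthase 3-like (TRINITY_DN775_c0_g2) had 46.6 ± 3.19 CPM in ‘RB1’ and 57.5 ± 4.23 in ‘1B’ (SD, n = 3 each), and its log2 fold change of 0.30 reversed to -0.21 with library size as the only scaling. The sucrose synthase measured by RT-qPCR in the study (TRINITY_DN775_c0_g3) had 38.1 ± 4.52 and 35.7 ± 1.65 CPM, and sucrose synthase 5 had 2.26 ± 0.118 and 2.107 ± 0.257 CPM, so that both had overlapping levels. For both the log2 fold change was near -0.1, with an adjusted p of 0.333 and 0.63, and with library size as the only scaling TRINITY_DN775_c0_g3 had -0.60 (adjusted p = 5.30e-07), still under the fold threshold.

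Invertases split sucrose into glucose and fructose, irreversibly. The cell wall invertase (insoluble beta-fructofuranosidase 1, TRINITY_DN1273_c2_g1) had 4110, 4000 and 3978 CPM in the ‘RB1’ fruits and 7250, 7587 and 6853 CPM in the ‘1B’ fruits. The vacuolar-like acid invertase (TRINITY_DN3457_c0_g1) had 22.1, 17.9 and 17.4 CPM in ‘RB1’ and 33.5, 39.8 and 38.6 CPM in ‘1B’. In both genes every ‘1B’ fruit was above every ‘RB1’ fruit. The log2 fold changes of 0.84 ± 0.11 (adjusted p = 1.19e-06) and 0.98 ± 0.09 (adjusted p = 8.04e-09) stayed under 1.5, so neither counted as called.

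Trehalose 6-phosphate is a signal of sugar supply in plants, and trehalose-phosphate phosphatases remove it. Of the 3 genes of this group, phosphatase D (TRINITY_DN2555_c0_g1) was lower in ‘1B’ (7.28% of all gene sums). It had 27.98, 29.7 and 32.4 CPM in the ‘RB1’ fruits and 0.751, 0.916 and 0.803 CPM in the ‘1B’ fruits, which are all low and narrow in spread. The log2 fold change was -5.19 ± 0.11 (adjusted p = 7.59e-19). Trehalose-phosphate synthase 1-like and phosphatase F both had under 1 CPM in both varieties and were not called.

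Genes of starch divided by enzyme. All 5 starch breakdown genes of the list had a higher level in ‘1B’ with an adjusted p under 0.05, as did 29.7% of all gene sums, but only isoamylase 3, which removes branches from starch, passed the fold threshold. Its gene sum (TRINITY_DN5599_c0_g1) was 1.15, 0.802 and 1.44 CPM in ‘RB1’ and 9.40, 9.39 and 8.06 CPM in ‘1B’, a log2 fold change of 2.99 ± 0.15 (adjusted p = 7.05e-13). The other 4, alpha-amylase 3, beta-amylase 7, alpha-glucan phosphorylase H and the glucanotransferase DPE1, had log2 fold changes of 0.30 to 0.89. With library size as the only scaling, the median log2 fold change of the 76 list genes fell to -0.55, a shift greater than the differences of alpha-amylase 3, phosphorylase H and DPE1. Of the 5 starch and nucleotide sugar synthesis genes only granule-bound starch synthase 1, which makes amylose, was called (15.1% of all gene sums). The gene (TRINITY_DN5853_c0_g2) had 3.44, 2.60 and 2.24 CPM in ‘RB1’ and 23.9, 24.1 and 22.3 CPM in ‘1B’, with a log2 fold change of 3.16 ± 0.11 (adjusted p = 1.25e-15). Starch synthase 4 went the other way without passing the fold threshold, with 52.0 CPM in ‘RB1’ and 21.3 CPM in ‘1B’ (log2 fold change -1.29, adjusted p = 1.87e-12).

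Among the 4 beta-glucosidases, 2 were called lower in ‘1B’ and none higher (7.28 and 7.85% of all gene sums). Beta-glucosidase 31-like (TRINITY_DN3009_c0_g1) had 53.1, 57.9 and 64.1 CPM in ‘RB1’ and 0.644, 0.333 and 0.759 CPM in ‘1B’. The log2 fold change was -6.66 ± 0.15 (adjusted p = 7.55e-19), which is 101-fold. Beta-glucosidase BoGH3B-like (TRINITY_DN3108_c0_g1) had 5.01, 6.52 and 5.66 CPM in ‘RB1’ and 1.202, 2.02 and 1.25 CPM in ‘1B’ (log2 fold change -1.96 ± 0.16, adjusted p = 1.57e-09). Beta-glucosidase 41 had 254 ± 24.9 CPM in ‘RB1’ and 361 ± 28.2 in ‘1B’ (SD, n = 3 each), and its log2 fold change of 0.51 became -0.01 with library size as the only scaling. Beta-glucosidase 42-like had 22.9 ± 3.38 and 17.2 ± 0.852 CPM (log2 fold change -0.40), which was not called. Of 5 other glycan enzymes, mannan endo-1,4-beta-mannosidase 7, which cuts mannans of the cell wall, was higher in ‘1B’ (7.85% of all gene sums). It had 4.12, 3.73 and 2.97 CPM in ‘RB1’ and 32.9, 40.1 and 35.6 CPM in ‘1B’ (log2 fold change 3.36 ± 0.11, adjusted p = 3.10e-16). The other 4 had log2 fold changes between -0.39 and 0.21. They include a gene described as a glycolipid transfer protein although the list files it with an endoglucanase, so its place is uncertain.

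**Figure D3:**
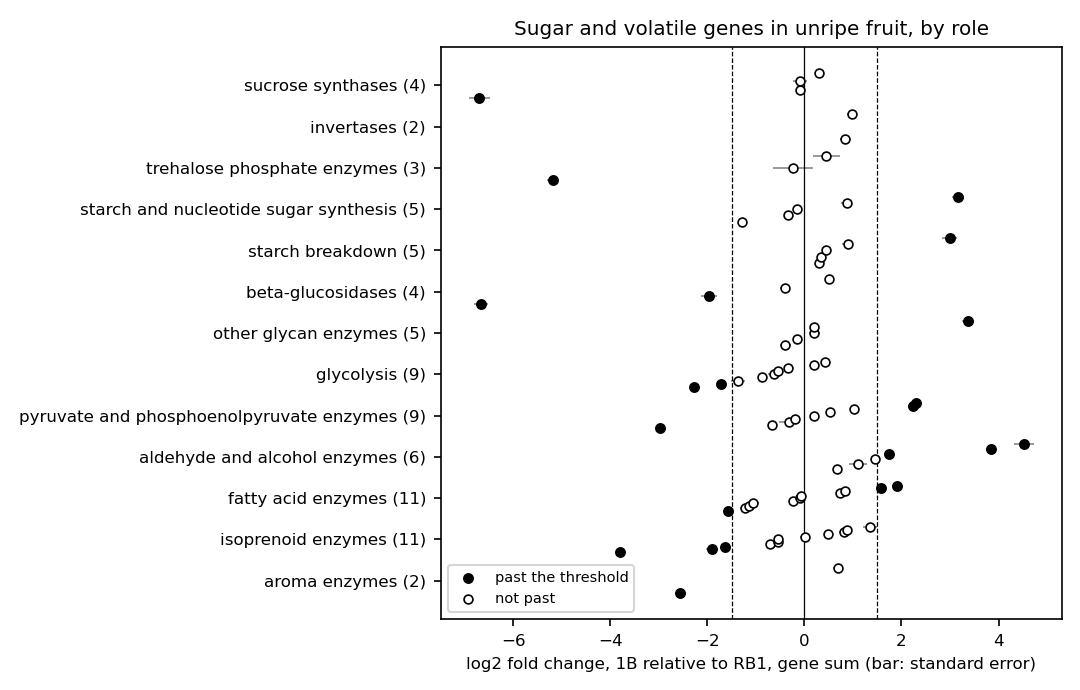
Each point is the log2 fold change of 1 list gene sum, ‘1B’ relative to ‘RB1’ in unripe fruit, with its standard error as a bar, in rows by role (number of genes tested in brackets). Filled points passed the threshold (22 of 76), and all 6 aldehyde and alcohol enzymes lie to the right of 0.

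Glycolysis leads from hexoses to pyruvate. In the 9 genes filed under it, 7 had a lower level in ‘1B’ with an adjusted p under 0.05 and 1 had a higher level (27.3 and 29.7% of all gene sums), with a median log2 fold change of -0.62. Only 2 passed the fold threshold, both lower (7.28% of all gene sums). The beta subunit of PFP, which phosphorylates fructose 6-phosphate with pyrophosphate, reversibly, had 299, 303 and 299 CPM in ‘RB1’ and 63.3, 65.5 and 58.4 CPM in ‘1B’ (TRINITY_DN2802_c0_g1, log2 fold change -2.27 ± 0.08, adjusted p = 5.44e-16). Aldose 1-epimerase, which interconverts the alpha and beta forms of free sugars, had 43.6 ± 2.22 CPM in ‘RB1’ and 13.3 ± 0.932 in ‘1B’ (TRINITY_DN451_c0_g1, log2 fold change -1.72 ± 0.08, adjusted p = 7.19e-14). In both genes the varieties were far apart relative to the spread of their 3 fruits. One of the 9 genes is described as a leucine-tRNA ligase although the list files it with phosphoglycerate kinase, so its place in the group is uncertain.

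Around pyruvate and phosphoenolpyruvate, 2 of 9 genes were higher and 1 was lower in ‘1B’ (7.85 and 7.28% of all gene sums). Plastidial pyruvate kinase 2 (TRINITY_DN1288_c0_g1), which makes pyruvate in the plastid, had 195, 208 and 212 CPM in ‘RB1’ and 26.9, 26.5 and 24.8 CPM in ‘1B’. Its log2 fold change was -2.98 ± 0.08 (adjusted p = 7.60e-18). The other 3 pyruvate kinases had log2 fold changes between -0.66 and 0.52 and were not called. Pyruvate, phosphate dikinase (TRINITY_DN15218_c0_g1), which turns pyruvate back to phosphoenolpyruvate, had 3.48, 2.82 and 3.39 CPM in ‘RB1’ and 15.5, 16.8 and 15.0 CPM in ‘1B’ (log2 fold change 2.31 ± 0.10, adjusted p = 4.38e-14). Pyruvate decarboxylase 1 (TRINITY_DN81_c0_g1), the enzyme that makes acetaldehyde from pyruvate, had 5.43, 5.196 and 6.25 CPM in ‘RB1’ and 28.8, 25.6 and 25.5 CPM in ‘1B’ (log2 fold change 2.23 ± 0.09, adjusted p = 1.55e-14). Every ‘1B’ fruit was above every ‘RB1’ fruit in both. Phosphoenolpyruvate carboxykinase, which makes phosphoenolpyruvate from oxaloacetate, had 417 CPM in ‘RB1’ and 852 CPM in ‘1B’ (log2 fold change 1.03) and stayed under the fold threshold.

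The aldehyde and alcohol enzymes had the highest median of the 13 groups. All 6 had a higher level in ‘1B’ with an adjusted p under 0.05 (29.7% of all gene sums), the median log2 fold change was 1.60, and 3 passed the fold threshold (7.85% of all gene sums). Aldehyde dehydrogenases oxidise aldehydes to acids, and alcohol dehydrogenases interconvert alcohols and aldehydes. Alcohol dehydrogenase class-P (TRINITY_DN1848_c0_g1) had 3.69, 3.50 and 4.27 CPM in ‘RB1’ and 59.8, 54.0 and 52.2 CPM in ‘1B’, a log2 fold change of 3.85 ± 0.09 (adjusted p = 3.71e-18). Aldehyde dehydrogenase 3 F1 (TRINITY_DN31090_c0_g1) had 0.297, 0.252 and 0.212 CPM in ‘RB1’ and 6.57, 5.58 and 4.798 CPM in ‘1B’ (log2 fold change 4.53 ± 0.20, adjusted p = 4.57e-14), and it led the list among genes higher in ‘1B’. Its ‘RB1’ fruits were all under 1 CPM. Aldehyde dehydrogenase 2 B7 (TRINITY_DN1920_c0_g1) had 7.71 ± 0.358 CPM in ‘RB1’ and 25.6 ± 2.41 in ‘1B’ (log2 fold change 1.74 ± 0.09). This difference fell to 1.22 with library size as the only scaling. Aldehyde dehydrogenase 3 H1 just missed the threshold with a log2 fold change of 1.46, and family 2 B4 and an aldo-keto reductase followed with 0.67 and 1.11.

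Fatty acid genes gave no common direction, with 2 of 11 higher and 1 lower in ‘1B’ (7.85 and 7.28% of all gene sums). Their median log2 fold change was -0.09. The 11 include a gene described as a transcription factor although the list files it with an acyl-CoA oxidase, so its place is uncertain. Long chain acyl-CoA synthetases activate fatty acids by joining them to coenzyme A. Synthetase 2 (TRINITY_DN1831_c0_g1) had 101, 101 and 102 CPM in ‘RB1’ and 332, 283 and 293 CPM in ‘1B’. The log2 fold change of 1.58 ± 0.08 (adjusted p = 3.32e-13) was just past the threshold and fell to 1.06 with library size as the only scaling and to 1.45 when all libraries were thinned to the depth of the shallowest. The hydroxyacyl-CoA dehydratase PASTICCINO 2B-like (TRINITY_DN7525_c0_g1), of very long chain fatty acid synthesis, had 2.27 ± 0.166 and 8.57 ± 0.835 CPM (log2 fold change 1.91 ± 0.11, or 1.40 with library size only). The list describes 1 of its isoforms as a guanosine nucleotide diphosphate dissociation inhibitor, so this name is uncertain. An alpha subunit of acetyl-CoA carboxylase, which makes the malonyl-CoA for fatty acid synthesis, was lower (TRINITY_DN578_c0_g1, 73.5 CPM in ‘RB1’ and 24.7 CPM in ‘1B’, log2 fold change -1.57, adjusted p = 8.63e-14).

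In isoprenoid synthesis 3 of 11 genes were called lower in ‘1B’ and none higher (7.28 and 7.85% of all gene sums). An adjusted p under 0.05 at any fold was reached by 6 lower and 4 higher genes (27.3 and 29.7% of all gene sums). Acetyl-CoA acetyltransferase 1-like (TRINITY_DN1293_c0_g1), which joins 2 acetyl-CoA at the start of the mevalonate route, had 150, 129 and 127 CPM in ‘RB1’ and 10.4, 9.66 and 9.06 CPM in ‘1B’. All ‘1B’ fruits were low, with a log2 fold change of -3.80 ± 0.09 (adjusted p = 1.89e-18). Farnesylcysteine lyase, which breaks down a product of protein prenylation, had 6.25 ± 0.308 and 1.67 ± 0.191 CPM (TRINITY_DN4683_c0_g1, log2 fold change -1.91 ± 0.12, adjusted p = 3.27e-11). The third, deoxyxylulose phosphate synthase 2, starts the plastid route to isoprenoids and had 764 CPM in ‘RB1’ and 245 CPM in ‘1B’ (TRINITY_DN6873_c0_g1, log2 fold change -1.64).

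Both aroma enzymes of the list differed in opposite directions, and 1 was called (15.1% of all gene sums were). The terpene synthase gene that holds the geranylinalool and S-linalool synthase-like isoforms (TRINITY_DN2620_c0_g1) had 229, 246 and 250 CPM in ‘RB1’ and 44.7, 38.7 and 39.3 CPM in ‘1B’. All ‘RB1’ fruits were high, and the log2 fold change was -2.56 ± 0.08 (adjusted p = 1.84e-16). Its 2 listed isoforms carried little of that sum. The linalool synthase-like isoform 57 had 6.18 ± 0.844 CPM in ‘RB1’ and 1.40 ± 0.504 in ‘1B’, lower in ‘1B’ like the gene sum. The geranylinalool synthase-like isoform 44 had 0 counts in every ‘RB1’ fruit and 0.697 ± 0.262 CPM in ‘1B’, at least 36.2-fold higher. Here and below, such a bound is set against 3 counts summed over the libraries of the variety at 0, and it covers counting error only. The benzyl alcohol O-benzoyltransferase-like gene, whose enzyme makes benzyl benzoate, had 2665, 2700 and 2740 CPM in ‘RB1’ and 4207, 4624 and 4302 CPM in ‘1B’ (TRINITY_DN4842_c0_g1, log2 fold change 0.70 ± 0.10, adjusted p = 6.06e-06), under the fold threshold though without overlap.

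Outside the list, identifiers have no gene name. Among called gene sums with a mean of at least 10 CPM, the 2 largest differences in each direction exceeded all of those above. TRINITY_DN6396_c0_g1 had 53211, 47179 and 52351 CPM in the ‘1B’ fruits and 0.0849, 0.178 and 19.3 CPM in the ‘RB1’ fruits. TRINITY_DN3674_c2_g1 had 26195, 29429 and 32724 CPM in ‘1B’ and 0.340, 0.148 and 8.16 CPM in ‘RB1’. In both genes ‘RB1’ replicate 3 stood above the other two ‘RB1’ fruits, and the log2 fold changes of 12.84 and 13.18 rose to 18.34 and 17.17 without it. In the other direction, TRINITY_DN321_c0_g2 had 50.1, 47.9 and 50.8 CPM in ‘RB1’ and 0 counts in every ‘1B’ fruit, at least 2304-fold lower. TRINITY_DN3042_c0_g2 had 20.4 ± 0.349 CPM in ‘RB1’ and likewise 0 counts in ‘1B’, at least 949.9-fold lower.

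At the level of isoforms, the varieties differed in 7808 of 60891 tested (12.8%), with 3817 higher (6.27%) and 3991 lower (6.55%) in ‘1B’. Most of these isoforms belonged to genes whose sum was not called. For 3410 called isoforms (43.7%) the gene sum was called in the same direction, for 4261 (54.6%) it was not called, and for 137 it was called in the opposite direction. An isoform was at 0 counts in every fruit of a variety in 3567 of the 7808 (45.7%), 1518 times in ‘RB1’ and 2049 times in ‘1B’. The split of reads between similar isoforms is itself an estimate of Salmon, and an isoform call rests on it. Without ‘RB1’ replicate 1, 8138 isoforms were called, and without ‘RB1’ replicate 2 the number of lower isoforms was 2609.

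Of the 118 listed isoforms 93 could be tested, and 48 of these were called, 18 higher and 30 lower in ‘1B’, against the 12.8% over all isoforms. For 15 of them the gene sum was called in the same direction, for 30 it was not called, and for 3 it was called in the opposite direction. In the first 4 examples the isoform was higher in ‘1B’ and its gene sum was not called. Isoform 9 of long chain acyl-CoA synthetase 4-like had 0.338, 1.26 and 1.49 CPM in ‘RB1’ and 52.8, 46.3 and 43.6 CPM in ‘1B’ (log2 fold change 5.45 ± 0.52, adjusted p = 0.00163), while the gene sum was 116 and 110 CPM. Isoform 17 of alpha-amylase 3, which cuts starch chains internally, had 0 counts in every ‘RB1’ fruit and 10.95, 12.1 and 12.3 CPM in ‘1B’, at least 610.9-fold higher, with gene sums of 40.9 and 51.9 CPM. Isoform 31 of starch synthase 4 was also at 0 in ‘RB1’ and had 11.5, 10.03 and 9.14 CPM in ‘1B’, at least 530.5-fold higher, although the gene sum was lower in level. Isoform 6 of phosphoenolpyruvate carboxykinase had 9.02 ± 3.39 CPM in ‘RB1’ and 41.9 ± 3.13 in ‘1B’ (log2 fold change 2.22 ± 0.27, adjusted p = 0.00381).

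Among lower isoforms, isoform 5 of the cofactor-independent phosphoglycerate mutase had 15.9, 15.8 and 15.2 CPM in ‘RB1’ and 0 counts in every ‘1B’ fruit (TRINITY_DN1285_c2_g1), at least 721.8-fold lower. The gene sum was 82.0 CPM in ‘RB1’ and 110 CPM in ‘1B’. Isoform 21 of alpha-glucan phosphorylase H, an enzyme that releases glucose 1-phosphate from glucan, had 24.5 ± 2.60 and 7.99 ± 1.16 CPM (log2 fold change -1.61 ± 0.14, adjusted p = 0.0012), and its gene sum was 130 and 160 CPM (TRINITY_DN1426_c0_g1). Isoform 2 of beta-glucosidase 42-like had 4.89 ± 0.528 CPM in ‘RB1’ and 0 counts in ‘1B’, at least 225.7-fold lower, and isoform 2 of beta-glucosidase 31-like had 33.3 ± 4.15 CPM in ‘RB1’ and 0 counts in ‘1B’, at least 1536-fold lower. The calls of another pair of lower isoforms were lost when single fruits were left out. Isoform 42 of beta-glucosidase 41 had 8.88, 18.9 and 11.4 CPM in ‘RB1’ and 1.47, 0.147 and 0.560 CPM in ‘1B’ (adjusted p = 0.0217). Without ‘RB1’ replicate 2 or 3, or ‘1B’ replicate 3, its adjusted p was 0.0731, 0.0626 and 0.0969. Isoform 1 of long chain acyl-CoA synthetase 2 had 3.26, 6.62 and 10.8 CPM in ‘RB1’ and 1.39, 1.39 and 2.04 CPM in ‘1B’ (adjusted p = 0.0296), against a higher gene sum. It kept its call only when ‘RB1’ replicate 1 was left out, and its adjusted p was 0.0908 and 0.0795 without ‘RB1’ replicates 2 and 3 and 0.122, 0.121 and 0.0771 without ‘1B’ replicates 1 to 3.

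Isoform usage, the share of a gene's counts that each isoform takes, was tested with edgeR's diffSpliceDGE. Usage differed in 2281 of 10184 genes (22.4%), and in 1925 of these (84.4%) the gene sum was not called. Without ‘RB1’ replicate 1, 2645 genes differed in usage. In the list, 32 of 70 genes tested differed in usage, against that 22.4%. The largest shifts were in beta-amylase 7, pyruvate decarboxylase 1, beta-glucosidase 31-like, starch synthase 4 and long chain acyl-CoA synthetase 4-like, in this order.

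**Figure D4:**
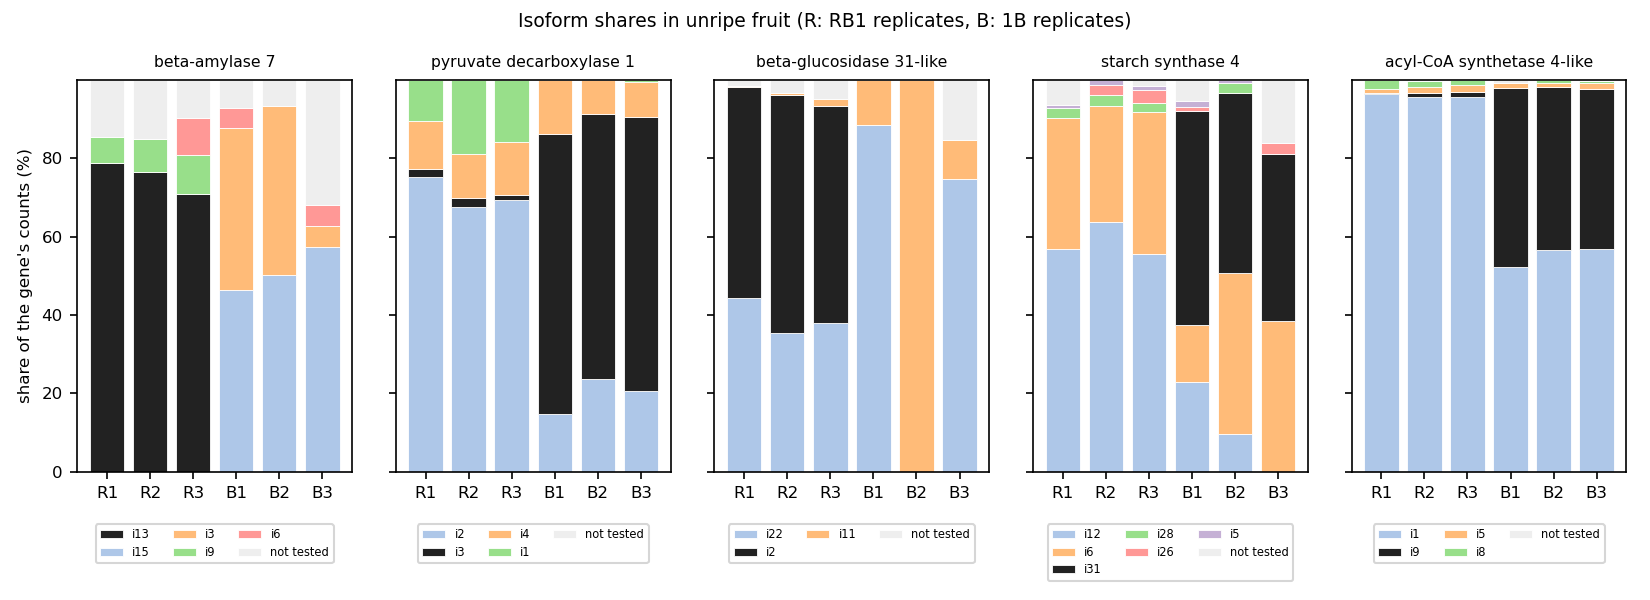
Bars show the share of a gene's counts (%) that each isoform takes in 1 unripe fruit (R, ‘RB1’; B, ‘1B’), with the isoform of the largest shift in black and isoforms too low to test in light grey. The black isoform is at 0% in every ‘1B’ fruit for beta-amylase 7 and beta-glucosidase 31-like, and takes 67.7 to 71.6% of pyruvate decarboxylase 1 in ‘1B’.

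Isoform 13 of beta-amylase 7 took 78.9, 76.6 and 70.9% of the gene's counts in ‘RB1’ and 0% in every ‘1B’ fruit (adjusted p = 3.31e-05, TRINITY_DN6052_c0_g1). In Arabidopsis the enzyme of this name is a nuclear protein that binds DNA. In ‘1B’ isoform 15 was first with 46.5, 50.1 and 57.2%, and it was at 0% in every ‘RB1’ fruit. Isoform 3 of pyruvate decarboxylase 1 took 2.09, 2.18 and 1.10% in ‘RB1’ and 71.6, 67.7 and 69.9% in ‘1B’ (adjusted p = 1.02e-08). The order of its isoforms was inverted, since isoform 2 took 67.7 to 75.2% in ‘RB1’ and 14.6 to 23.7% in ‘1B’.

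Isoform 31 of starch synthase 4 took 0% in ‘RB1’ and 54.6, 46.2 and 42.6% in ‘1B’ (adjusted p = 0.000646). Isoform 12 of this gene, which led in ‘RB1’ with 55.5 to 63.7%, took 22.9, 9.62 and 0% in the ‘1B’ fruits. Isoform 9 of long chain acyl-CoA synthetase 4-like took 0.895 ± 0.552% in ‘RB1’ and 42.7 ± 2.49% in ‘1B’ (adjusted p = 2.73e-08), and isoform 1 was first in every fruit of both varieties. Isoform 2 of beta-glucosidase 31-like took 53.9, 60.7 and 55.4% in ‘RB1’ and 0% in ‘1B’ (adjusted p = 0.00227). The gene was under 1 CPM in ‘1B’, and the adjusted p was 0.0592 and 0.0958 without ‘1B’ replicates 1 and 3.

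Across all genes with several isoforms and a mean of at least 10 CPM (5662), the most abundant isoform was the same in all 6 fruits in 4333. It was constant within each variety but different between them in 268 (4.73%). In the remaining 1061 genes it was not constant within a variety. The list genes with a different constant isoform were granule-bound starch synthase 1, pyruvate decarboxylase 1 and starch synthase 4. How many list genes were among the 5662 was not counted, so no share is set against 4.73%.

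Some isoforms were found in 1 variety only. With at least 10 counts in every fruit of a variety and 0 in every fruit of the other, 1554 isoforms were restricted to ‘1B’ and 1714 to ‘RB1’. The Trinity gene had counts in the other variety for 91.7% of the first and 91.8% of the second, so that the missing feature was mostly the isoform and not the gene. Whole gene sums were restricted in 42 cases to ‘1B’ and in 67 to ‘RB1’. The 2 directions should not be set against each other, because ‘RB1’ replicate 1 had the fewest counts. Ripe fruit gave independent samples for these isoforms. Of those restricted to ‘1B’, 1098 (70.7%) also had 0 counts in ripe ‘RB1’ replicates 1 and 2, and 634 (40.8%) met the whole criterion again in ripe fruit. Of those restricted to ‘RB1’, 820 (47.8%) had 0 counts in ripe ‘1B’, and 405 (23.6%) met the criterion again. The share of all isoforms with 0 counts in these ripe libraries was not counted, so these percentages have no baseline. They also rest on different numbers of ripe libraries in the 2 varieties. With ‘RB1’ ripe replicate 3 included, 941 isoforms restricted to ‘1B’ had 0 counts in ripe ‘RB1’. Then 550 restricted to ‘1B’ and 356 restricted to ‘RB1’ met the criterion again. Whole gene sums met it again in 15 and 7 cases.

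The variety difference of unripe fruit was then set beside that of ripe fruit, measured in other fruits. The ripe comparison had 3 ‘1B’ and 2 ‘RB1’ libraries, because the study left out ‘RB1’ ripe replicate 3. Of its 34437 gene sums 29.5% were called, 17.9% higher and 11.6% lower in ‘1B’. The median log2 fold change over all of them was 0.31. With ‘RB1’ ripe replicate 3 put back, the ripe calls fell from 10145 to 4405. Of the 1881 gene sums higher in unripe ‘1B’, 1750 could be tested in ripe fruit, where 449 (25.7%) were again higher and 309 (17.7%) were lower. Of the 1744 lower ones, 1586 could be tested, with 413 (26.0%) again lower and 226 (14.2%) higher. The interaction of variety and stage, fitted on 11 libraries, was past the threshold in 12145 gene sums (33.2%), and in 7257 with all 12 libraries. Because the interaction subtracts the unripe difference by which these gene sums were called, its counts among them are not given.

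Of the 22 list genes called in unripe fruit, 5 were called in the same direction in ripe fruit, 7 in the opposite direction and 10 were not called there. Signs were opposite between the stages in 36 of the 76 list genes. Of all gene sums called in unripe fruit and tested in ripe fruit, 54.2% of the higher and 52.3% of the lower kept their sign. Among all gene sums tested in ripe fruit, 58.7% had a higher level in ‘1B’. The share of all gene sums, called or not, that kept their sign was not counted. The 5 that held their direction were mannan endo-mannosidase 7 (log2 fold change 3.36 in unripe and 3.59 in ripe fruit), pyruvate, phosphate dikinase (2.31 and 3.85), aldehyde dehydrogenase 3 F1 (4.53 and 2.93), acetyl-CoA acetyltransferase 1-like (-3.80 and -3.08) and trehalose-phosphate phosphatase D (-5.19 and -1.77). For the mannosidase no difference between the stages was found, with an interaction of 0.21 ± 0.30 (adjusted p = 0.59).

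The 7 genes called in opposite directions came from several roles. Sucrose synthase 2, the list gene furthest below 0 in unripe ‘1B’, was higher in ripe ‘1B’ (log2 fold change 2.79, interaction 9.48 ± 0.37, adjusted p = 4.33e-20). Acetyl-CoA carboxylase alpha went from -1.57 to 1.96 and farnesylcysteine lyase from -1.91 to 1.69. Granule-bound starch synthase 1 went from 3.16 to -2.69, aldehyde dehydrogenase 2 B7 from 1.74 to -4.97, long chain acyl-CoA synthetase 2 from 1.58 to -1.68 and PASTICCINO 2B-like from 1.91 to -1.97. Among the list genes called at 1 stage only, plastidial pyruvate kinase 2 went from -2.98 to 1.49, just under the threshold in ripe fruit (interaction 4.45 ± 0.18, adjusted p = 9.98e-20). Alcohol dehydrogenase class-P went from 3.85 to 0.07 (interaction -3.81 ± 0.26, adjusted p = 4.25e-14), and the vacuolar-like invertase from 0.98 to -4.39 (interaction -5.37 ± 0.22, adjusted p = 1.79e-19).

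**Figure D5:**
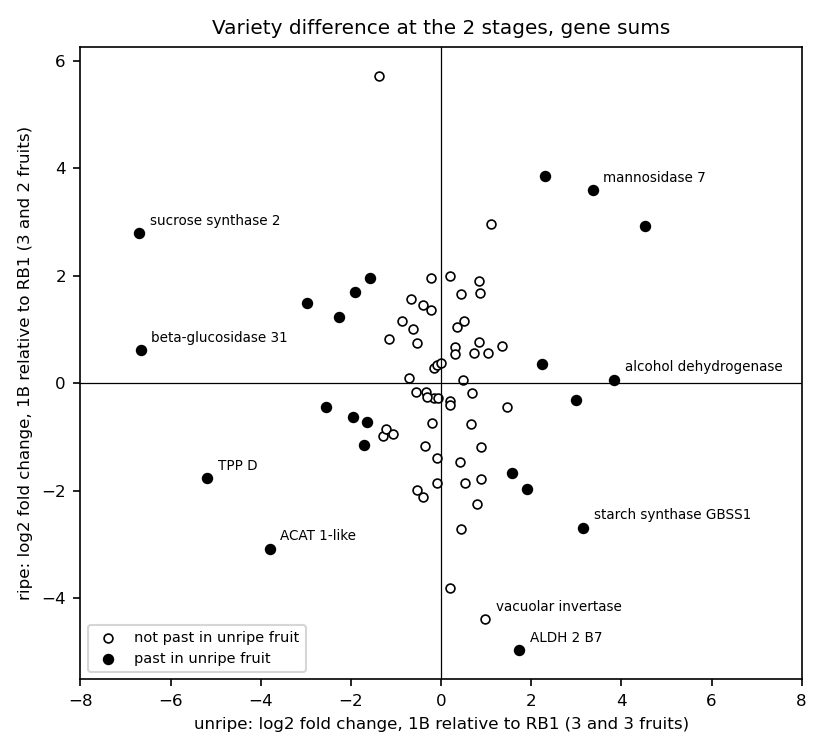
Each point is 1 of 76 list gene sums, with the log2 fold change of ‘1B’ relative to ‘RB1’ in unripe fruit (3 and 3 fruits) on the horizontal axis and in ripe fruit (3 and 2 fruits) on the vertical axis. Filled points passed the threshold in unripe fruit (22). Points above 0 on one axis and below 0 on the other, 36 of 76, had opposite signs at the 2 stages. Of all gene sums called in unripe fruit, 54.2% of the higher and 52.3% of the lower kept their sign in ripe fruit. Among all gene sums tested in ripe fruit, 58.7% had a higher level in ‘1B’.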

How the data were processed

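RNA of fruit flesh was sequenced by the authors on an Illumina NovaSeq. They trimmed the reads (bbduk, Trimmomatic 0.40, FastQC 0.11.9), pooled both varieties in 1 Trinity assembly without a genome, and estimated expected counts per transcript with Salmon. The deposited expected counts are not normalized. The deposited signal values are TPM that the authors scaled by TMM over the 12 libraries, and they were used only for alternatives. Whether the library kit or the counting kept the strand is not given in the sources used here, so antisense or overlapping transcripts cannot be separated.

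The table holds 180368 isoforms under 75259 Trinity genes. Expected counts were summed per gene and rounded, filtered with filterByExpr, scaled by TMM and tested with edgeR 4.0.16 (R 4.3.3), with Benjamini-Hochberg adjustment across every feature tested. Tables were joined in Python 3.11.15. The standard error (SE) was taken as the log2 fold change over the square root of F. Isoform usage was tested with diffSpliceDGE. The tests of gene sums, isoforms and usage were also run on counts simulated with the fitted dispersions. Such counts cannot check how Salmon split reads between isoforms, and the outcome is not given here. The comparisons were ‘1B’ against ‘RB1’ in unripe fruit (6 libraries) and in ripe fruit (5, without ‘RB1’ replicate 3) and the interaction (11). Levels at the 2 stages were scaled separately.

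The members, gene list, role groups and tests were chosen with earlier results of these data known. Named were the 10 list genes in each direction with the largest difference among those called without overlap and with a mean of at least 1 CPM, the 8 genes of the RT-qPCR, all sucrose synthases, invertases and beta-glucosidases of the list, 2 unnamed gene sums in each direction, 4 list isoforms in each direction whose gene sum was not called in the same direction, and the 5 usage genes with the largest shift. Acetyl-CoA carboxylase alpha, deoxyxylulose phosphate synthase 2, other list genes, and the isoforms of the terpene synthase gene and of beta-glucosidases 31 and 42, were chosen after their values were seen. No cell type markers could be matched, so the tissue label was not checked.

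Alternatives were RLE size factors, library size only, a median log2 fold change of 0, dropping the low-count filter or asking for 1 CPM in 2 libraries, DESeq2 1.42.0, the edgeR exact test, glmTreat, no fold threshold, a replicate block, 1 fit of 4 groups, limma 3.58.1 on log2 of the scaled TPM plus 1 or 0.1 (which understates changes of low genes), thinning to the shallowest library, unrounded counts, each library left out, and a minimum of 30 counts for restricted features.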

Additional observations from a re-analysis of the deposited data

Results flagged for a closer look

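For 23 of the 32 named gene sums, the variety difference itself differed between the stages by the interaction test of edgeR (adjusted p under 0.05 and an absolute log2 interaction above 1.5, 11 libraries, read as ripe minus unripe). This passed in 33.2% of all gene sums. Most of the named gene sums were chosen by their unripe difference, which the interaction subtracts, so the count of 23 is no evidence about them as a set. The median interaction over all gene sums was 0.47. The reason for the differences was not tested.

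The difference moved towards higher levels in ripe ‘1B’ for 11 of them. The interaction was 9.48 for sucrose synthase 2, 7.27 for beta-glucosidase 31-like, 4.45 for plastidial pyruvate kinase 2, 3.58 for farnesylcysteine lyase, 3.48 for PFP subunit beta and 3.40 for trehalose-phosphate phosphatase D. It was 2.12 for the geranylinalool and S-linalool synthase-like gene, 1.84 for beta-glucosidase 42-like and 1.54 for pyruvate, phosphate dikinase. It was 9.23 for TRINITY_DN321_c0_g2 and 14.44 for TRINITY_DN3042_c0_g2, both at 0 counts in unripe ‘1B’, so that these fitted values depend on the prior count.

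It moved towards lower levels in ripe ‘1B’ for 12. The interaction was -6.72 for aldehyde dehydrogenase 2 B7, -5.85 for granule-bound starch synthase 1, -5.37 for the vacuolar-like invertase, -3.90 for PASTICCINO 2B-like, -3.81 for alcohol dehydrogenase class-P, -3.33 for isoamylase 3 and -3.27 for long chain acyl-CoA synthetase 2. It was -1.90 for pyruvate decarboxylase 1, -1.77 for the sucrose synthase TRINITY_DN775_c0_g3 and -1.61 for aldehyde dehydrogenase 3 F1. The unnamed TRINITY_DN3674_c2_g1 and TRINITY_DN6396_c0_g1 had -2.79 and -2.83.

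With ‘RB1’ ripe replicate 3 included (12 libraries), 18 of the 23 passed with the same sign. The 5 others had an interaction of 1.04 (adjusted p = 0.216) for the geranylinalool and S-linalool synthase-like gene, -1.40 (0.0535) for TRINITY_DN775_c0_g3, 1.25 (0.0224) for beta-glucosidase 42-like, -3.92 (0.0612) for TRINITY_DN3674_c2_g1 and -2.40 (0.312) for TRINITY_DN6396_c0_g1.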

How the results depend on the processing

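The count of called gene sums stayed within 1.5 times of 3625 with RLE size factors, a median log2 fold change of 0, DESeq2, the exact test, thinning, unrounded counts and 1 fit of 4 groups. Library size only gave 1102 higher and 3605 lower gene sums and 6376 lower isoforms. No low-count filter gave 5697 gene sums (2991 lower) and 2621 lower isoforms, and at least 1 CPM in 2 libraries gave 2085 gene sums (1165 higher, 920 lower). glmTreat gave 1980 gene sums (1206 and 774) and 5083 isoforms (2491 and 2592). No fold threshold gave 13668 gene sums (7117 and 6551), 64 list genes (34 and 30) and 12842 isoforms (7200 higher). limma with a pseudocount of 1 gave 982 gene sums (484 and 498), 5 higher list genes and 2145 isoforms (979 and 1166), and with 0.1 it gave 1110 higher gene sums.

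Replicate numbers are shared by the varieties, but same-numbered fruits did not deviate together (r = -0.02, 0.02 and 0.02 across genes), and not every fruit correlated best with its own number, so they share only a number. The replicate block gave 1867 higher and 1790 lower gene sums, 1556 usage genes and 1925 isoforms (1249 and 676), and an adjusted p of 0.056 for the usage of beta-amylase 7 and of 0.067, 0.072 and 0.0579 for alpha-amylase 3 isoform 17, starch synthase 4 isoform 31 and phosphoglycerate mutase isoform 5, with the cause not tested. Leaving out 1 library at a time gave 3976 to 4265 gene sums (2022 to 2129 higher, 1886 to 2243 lower), 22 to 24 list genes, 6618 to 8138 isoforms (3347 to 4294 higher, 2609 to 3907 lower) and 2201 to 2645 usage genes.

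Values that changed sign were differences or interactions that had not passed the threshold: sucrose synthase 3-like and beta-glucosidase 41 with library size only (-0.21 and -0.00699), TRINITY_DN775_c0_g3 without ‘RB1’ unripe replicate 3 (0.0404, against -0.134 without replicate 2), and, with 12 libraries, the interactions of mannan endo-mannosidase 7 (-0.86), sucrose synthase 3-like (-0.016) and cell wall invertase (-0.21). The fit of 12 libraries gave 7257 interactions (3661 positive), and 6 ripe libraries gave 4405 ripe calls (2401 and 2004). At least 30 counts left 1012 isoforms restricted to ‘1B’ and 957 to ‘RB1’, and 15 and 16 gene sums. Shares of TPM moved the shift of beta-amylase 7 from -75.5 to -68.7 percentage points and of pyruvate decarboxylase 1 from 67.9 to 72.8. Of the checks of named gene sums, 648 kept direction and side of the threshold, 15 fell under it, 6 passed it and 3 changed sign, and of those of named isoforms 147 kept their call and 21 lost it.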

Other observations

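In several enzyme families of the list, members had levels on opposite sides of 0 in unripe fruit. These pairs were chosen after their values were seen, and differences between family members were not tested. Of the acetyl-CoA acetyltransferases, which join acetyl-CoA units, gene 1-like was lower in ‘1B’ (136 to 9.72 CPM), while acetyl-CoA acetyltransferase 2 had 4.31 CPM in ‘RB1’ and 7.61 CPM in ‘1B’ (log2 fold change 0.81, adjusted p = 6.46e-07). Of the alpha subunit genes of acetyl-CoA carboxylase, TRINITY_DN578_c0_g1 was lower in ‘1B’, while TRINITY_DN5108_c1_g1 had 67.3 and 112 CPM (log2 fold change 0.73, adjusted p = 1.56e-08). Of the phosphoglycerate mutases, which move the phosphate of phosphoglycerate in glycolysis, the cofactor-dependent form TRINITY_DN2089_c0_g2 had 17.2 and 6.58 CPM (log2 fold change -1.37, adjusted p = 2.81e-08). In ripe fruit the log2 fold change of this gene was 5.72. The cofactor-independent form had a log2 fold change of 0.42 in unripe fruit and -1.47 in ripe fruit.

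In plastid fatty acid synthesis, biotin carboxyl carrier protein 1 and stearoyl-ACP desaturase 6 had lower levels in ‘1B’ without passing the fold threshold. The carrier protein had 29.0 CPM in ‘RB1’ and 13.1 CPM in ‘1B’ (log2 fold change -1.14, adjusted p = 2.91e-10), and the desaturase had 1333 and 573 CPM (log2 fold change -1.22, adjusted p = 5.54e-09). In the plastid isoprenoid route, the last enzyme, hydroxymethylbutenyl diphosphate reductase, had 198 and 121 CPM (TRINITY_DN2093_c0_g1, log2 fold change -0.71, adjusted p = 2.52e-07). Farnesyl pyrophosphate synthase 1, which makes the precursor of sesquiterpenes, had 1.59 and 4.01 CPM (log2 fold change 1.35, adjusted p = 3.69e-08). None of these passed the fold threshold.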
